A study of Mus musculus with 14 samples.

Results

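The genes described here are 10 genes of the extracellular matrix that act as signals or as remodelling factors: Spp1, Sparc, Fn1, Thbs1, Postn, Lox, Timp1, Timp3, Mmp2 and Bgn. They were matched by symbol to the 14837 genes of the input RNA table and to the gene identifiers of the m6A-RIP, Igf2bp3-RIP and Lin28a-RIP tables. The list was put together with its RNA change already known, and Spp1 in particular was chosen by its large RNA difference, so the RNA values of the members are given as a description only. All 10 members had a row in the input table, 6 had rows in m6A-RIP, 7 had peaks assigned to them in Igf2bp3-RIP and 5 in Lin28a-RIP. The peaks assigned to Postn lay outside that gene and are described apart.

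Lin28a+ muscle stem cells (MuSCs), obtained by flow cytometry from skeletal muscle of mice with Lin28a-CreERT2 and LSL-tdTomato and grown on Matrigel with fetal bovine serum, were compared with control MuSCs. The tdTomato reporter of these mice is switched on by a tamoxifen-inducible Cre made from the Lin28a locus, so it marks cells that used this locus and their descendants. The input samples are labelled as untreated and the RIP samples by their assay, and the labels call the other group control with no genotype beyond that word. Input RNA, m6A-RIP and Igf2bp3-RIP had 2 libraries in each group, and Lin28a-RIP had 2 libraries of Lin28a+ MuSCs only. The labels give neither the age of the mice nor which libraries came from separate animals or cultures, so p-values measure the spread between these libraries, which may be technical.

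Summed counts per library ranged from 4842915 to 6220960 in the input table, from 21350962 to 31830638 in m6A-RIP, from 9215355 to 34142094 in Igf2bp3-RIP and from 33908110 to 36610494 in Lin28a-RIP. The 10 myogenic markers of a fixed list summed to 15397 and 15672 CPM (counts scaled to a common library size by the trimmed mean of M-values, TMM) in control and to 14771 and 14942 CPM in Lin28a+ MuSCs. That sum hid changes in both directions, with 3 markers higher and 5 lower past the threshold: Myog, a factor of differentiation, rose from 766 and 775 CPM to 2769 and 2809 CPM, and Myf5 fell from 451 and 465 CPM to 197 and 200 CPM. Macrophage markers, with 6 of 9 genes listed, summed to between 3.54 and 5.72 CPM in the 4 libraries, and Ptprc, the pan-leukocyte antigen, was at 0 in each. Of the 10 fibroblast and fibro-adipogenic markers 7 were listed, and they summed to 269 and 276 CPM in control against 195 and 195 CPM in Lin28a+ MuSCs. Gsn and Col3a1 made up most of that sum, and Gsn differed, at 144 and 149 CPM against 63.1 and 63.8 CPM, while Col3a1 stood at 121 and 120 CPM against 116 and 117 CPM. Ly6a (Sca-1) of the same list rose from 3.93 and 4.51 CPM to 13.6 and 12.5 CPM. Pdgfra, the defining marker of fibro-adipogenic progenitors, was at 0.19 and 0.16 CPM in control and at 0 in both Lin28a+ libraries. Tendon markers, 2 of 3 listed, summed to 68.4 and 68.9 CPM in control and to 142 and 146 CPM in Lin28a+ MuSCs. Pericyte and smooth muscle markers, 7 of 8 listed and mostly Acta2, summed to 5842 and 5878 CPM in control and to 7697 and 7715 CPM in Lin28a+ MuSCs, with 3 higher and 2 lower past the threshold. Of these, Tagln fell from 285 and 293 CPM to 77.2 and 75.4 CPM, and Rgs5 fell from 2.44 and 2.09 CPM to 0.20 and 0.20 CPM. Endothelial and glial markers summed to under 1 CPM in each library. The part of such cells in the differences given here was not tested.

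Matricellular proteins are secreted into the matrix but signal to cells more than they bear load. Spp1 (osteopontin), Thbs1 (thrombospondin 1), Sparc and Postn (periostin) bind integrins, collagens or growth factors, and are typically raised in tissue under repair. Fn1 (fibronectin) forms the provisional matrix on which cells adhere and migrate, and Bgn (biglycan) is a small leucine-rich proteoglycan that binds collagen. Lox (lysyl oxidase) crosslinks collagen and elastin, Mmp2 (gelatinase A) degrades the matrix, and Timp1 and Timp3 inhibit such metalloproteinases. In muscle, the matrix around the fibre forms the niche in which MuSCs rest and divide. N6-methyladenosine (m6A) is a base modification of mRNA, and m6A-RIP recovers RNA fragments with an antibody to it. Igf2bp3 is an RNA-binding protein that reads m6A, and Lin28a is an RNA-binding protein of embryonic and stem cells.

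Spp1 had the largest RNA change of the members, and Sparc and Timp1 the smallest among those tested. The 250 bases before the first annotated start of these 3 genes are shown because these genes were lower together in RNA and m6A-RIP and span the range from the largest to the smallest difference. The sequences are from RefSeq on GRCm38.p6 and are written 5′ to 3′ on the strand of the gene. Capitals mark every match, on either strand, to TATAAA (the TATA box), CCAAT (the CCAAT box), TGANTCA (the AP-1 site) or GGGCGG (the Sp1 site).
Spp1, chr5:104434861-104435110, plus strand: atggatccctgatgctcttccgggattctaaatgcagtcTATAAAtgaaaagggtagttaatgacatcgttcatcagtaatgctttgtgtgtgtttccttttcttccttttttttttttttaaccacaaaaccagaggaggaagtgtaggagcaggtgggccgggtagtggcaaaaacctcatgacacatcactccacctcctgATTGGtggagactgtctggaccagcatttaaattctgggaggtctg
Sparc, chr11:55420081-55420330, minus strand: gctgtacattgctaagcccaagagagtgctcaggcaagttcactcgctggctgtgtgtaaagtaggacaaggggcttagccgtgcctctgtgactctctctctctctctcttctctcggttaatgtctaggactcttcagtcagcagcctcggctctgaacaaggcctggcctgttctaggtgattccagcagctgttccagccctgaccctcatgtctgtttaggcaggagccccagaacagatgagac
Timp1, chrX:20869916-20870165, plus strand: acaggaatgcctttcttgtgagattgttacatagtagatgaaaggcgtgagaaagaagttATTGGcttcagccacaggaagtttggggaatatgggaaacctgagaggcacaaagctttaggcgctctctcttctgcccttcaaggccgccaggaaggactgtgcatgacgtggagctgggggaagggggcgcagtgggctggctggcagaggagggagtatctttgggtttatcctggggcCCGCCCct
The Spp1 window held 1 match to TATAAA, which began 211 bases before the start, and 1 to CCAAT, which began 46 bases before it. The window of a second annotated Spp1 start, chr5:104435942-104436191, held no match to any of the 4 motifs and was 35.6% G or C. The Sparc window held no match to any of the 4 motifs. In the Timp1 window 1 match to CCAAT began 190 bases before the start, and 1 to GGGCGG began 8 bases before it. Over the 32851 promoters of the same table and window, 12.4% held TATAAA, 33.8% CCAAT, 6.75% TGANTCA and 32.7% GGGCGG. The windows of Spp1, Sparc and Timp1 were 43.6%, 54.0% and 54.4% G or C, against a median of 52.4% over all promoters. RefSeq promoter sequence was matched for 6 of the 10 members.

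In input RNA, every member that passed the filter on low counts was lower in Lin28a+ than in control MuSCs. Levels are given as the same TMM-scaled CPM, and the 2 values of a group are its 2 libraries. The Lin28a+ columns of the input table are headed with m6A-RIP names, and they were taken as input because the labels of the Lin28a+ input samples name that table. In bulk RNA, a smaller share of cells that express a gene and less RNA per cell cannot be told apart.

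Spp1 stood at 201 and 202 CPM in control MuSCs and at 13.8 and 13.7 CPM in Lin28a+ MuSCs. The log2 difference, -3.87 ± 0.042 (SE, n = 2 per group) or 14.6-fold lower, is the value that selected the gene. This SE is narrower than counting error alone would give for the rounded counts of 70 and 67 in Lin28a+ MuSCs. DESeq2 gave an SE of 0.17 for the same difference. Thbs1, which activates latent TGF-beta and binds Cd36 and Cd47, stood at 1189 and 1216 CPM in control and at 749 and 744 CPM in Lin28a+ MuSCs, 1.61-fold lower. Sparc, a collagen-binding glycoprotein, stood at 566 and 571 CPM in control and at 480 and 480 CPM in Lin28a+ MuSCs, 1.18-fold lower. The libraries of the groups did not overlap for any of these 3 genes. The share of all genes without overlap in RNA was not counted, so nothing is read from this. Postn was near the detection limit, with rounded counts of 1 and 1 in the control libraries and of 1 and 0 in the Lin28a+ libraries, and was not tested.

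Of the structural members, Fn1 stood at 164 and 166 CPM in control and at 102 and 99.4 CPM in Lin28a+ MuSCs, 1.64-fold lower. Bgn was low, with rounded counts of 6 and 7 in control and of 2 and 2 in Lin28a+ MuSCs, and did not pass the filter. The ratio of its summed counts, control over Lin28a+, was 2.75 with an exact 95% binomial interval of 0.851 to 11.6 that covers counting error only.

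Lox had the second largest difference of the members tested, at 32.8 and 31.5 CPM in control and at 9.04 and 8.79 CPM in Lin28a+ MuSCs, 3.59-fold lower. The metalloproteinase inhibitor Timp3 stood at 5.81 and 6.11 CPM in control and at 3.34 and 3.07 CPM in Lin28a+ MuSCs, 1.86-fold lower. Timp1, the other inhibitor, stood at 425 and 424 CPM in control and at 364 and 347 CPM in Lin28a+ MuSCs, 1.19-fold lower. Mmp2 stood at 4.12 and 5.63 CPM in control and at 3.14 and 3.48 CPM in Lin28a+ MuSCs. Its log2 difference was -0.57 ± 0.20 (SE, n = 2 per group, with an SE of 0.63 in DESeq2), and -0.32 without control replicate 2. Its libraries did not overlap, but its control pair lay farther apart, relative to the mean, than that of any other member tested.

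**Figure D1:**
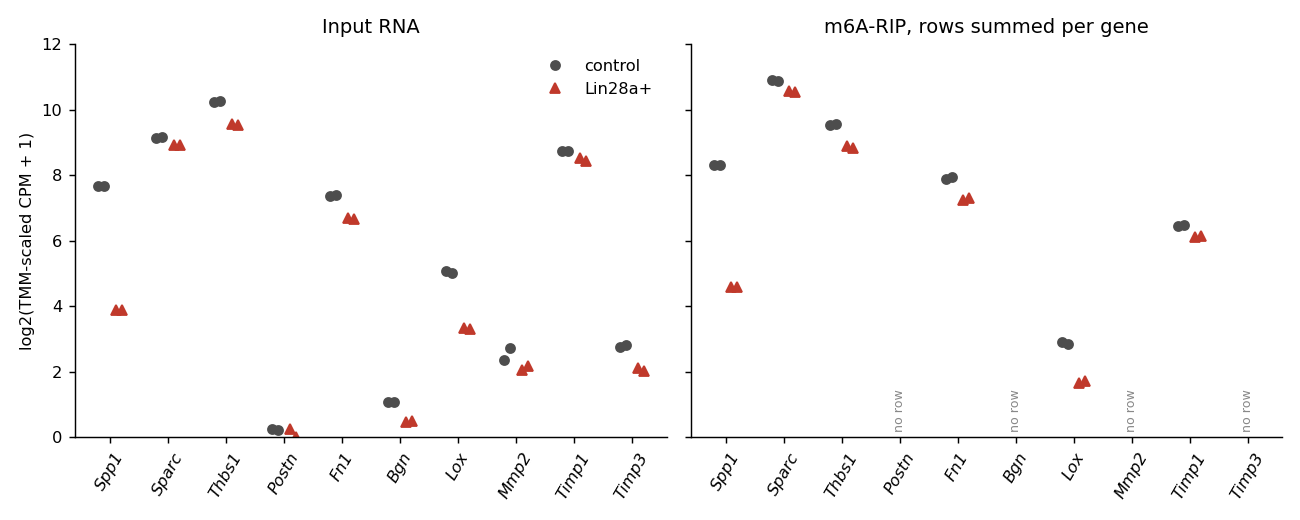
TMM-scaled CPM of the 10 members on a log2(CPM + 1) axis in input RNA (left) and m6A-RIP summed per gene (right); grey circles are the 2 control libraries and red triangles the 2 Lin28a+ libraries. Spp1 drops from 201 and 202 CPM to 13.8 and 13.7 CPM in RNA, and 4 members have no row in m6A-RIP.

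Over all genes, 56.8% of the 11317 tested passed an adjusted p of 0.05 in the RNA comparison, 28.7% lower and 28.1% higher in Lin28a+ MuSCs (edgeR's quasi-likelihood test, Benjamini-Hochberg). Of the 8 members tested, 7 passed, each of them lower, and nothing is read from this count, since the list was selected on this comparison. The median log2 difference was -0.70 over the 8 members and 0.01 over all genes tested. The member that did not pass was Mmp2, and the call of Timp3 was lost with DESeq2.

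The m6A-RIP libraries gave a second reading of 6 members. Per the methods, input was a share of the same purified mRNA, and m6A-RIP counts follow the RNA level, so this reading is not independent of the RNA values. All 6 members were lower in Lin28a+ MuSCs past the threshold, against 66.3% of the 9416 genes tested that passed, 33.8% lower and 32.5% higher. With scaling by total counts in place of TMM, the lower share of all calls moved from 51.0% to 61.1%. Spp1 stood at 314 and 315 CPM in control m6A-RIP and at 23.2 and 23.1 CPM in Lin28a+ m6A-RIP. The log2 difference was -3.76 ± 0.047 (SE, n = 2 per group), or 13.6-fold lower. Lox stood at 6.52 and 6.24 CPM in control and at 2.17 and 2.27 CPM in Lin28a+ MuSCs, a fall of 2.87-fold (edgeR adjusted p = 3.34e-05).

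Thbs1 stood at 740 and 748 CPM in control m6A-RIP and at 470 and 449 CPM in Lin28a+ m6A-RIP, 1.62-fold lower (edgeR adjusted p = 1.18e-08). Fn1 stood at 236 and 247 CPM in control and at 150 and 157 CPM in Lin28a+ MuSCs, 1.57-fold lower (edgeR adjusted p = 5.82e-08). Neither gene's groups overlapped, but the share of all genes without overlap in m6A-RIP was not counted, so nothing is read from this. Sparc and Timp1 had the smallest falls, 1.26-fold (1901 and 1881 against 1521 and 1486 CPM, edgeR adjusted p = 2.52e-06) and 1.27-fold (86.0 and 88.9 against 68.4 and 69.5 CPM, edgeR adjusted p = 6.75e-05). Postn, Bgn, Mmp2 and Timp3 had no m6A-RIP row.

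The m6A-RIP table holds several rows for some genes, each assigned to a transcript and without coordinates. The 6 members had 20 rows, and all 20 were lower past the threshold, against 31.8% of the 18881 rows tested. With 1 library left out, 18 to 20 of them passed. The rows of 1 gene share its RNA and are not independent. The 2 Spp1 rows had log2 differences of -3.65 and -3.72. The 6 Fn1 rows ranged from -0.91 to -0.41 and the 3 Thbs1 rows from -0.97 to -0.63. The 7 Sparc rows ranged from -0.44 to -0.15, and the row with the largest fall stood at 431 and 446 CPM in control and at 326 and 320 CPM in Lin28a+ MuSCs.

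Set side by side, the log2 differences in m6A-RIP and in RNA were within 0.11 of each other for 5 of the 6 members, and farther apart for Lox. The m6A-RIP difference minus the RNA difference was 0.11 ± 0.063 for Spp1, -0.01 ± 0.045 for Thbs1 and 0.06 ± 0.053 for Fn1 (SE from both fits). It was -0.09 ± 0.040 for Sparc, -0.09 ± 0.059 for Timp1 and 0.32 ± 0.22 for Lox. These errors hold the narrow edgeR SE of RNA, for Spp1 0.042 against 0.17 with DESeq2, and so are understated. With scaling by total counts the sign of the difference turned for Spp1 (to -0.02) and Fn1 (to -0.07). The value was then -0.14 for Thbs1, -0.22 for Sparc and Timp1 and 0.20 for Lox. Over the 7415 genes tested in both assays, the median of this difference was -0.01 and its interquartile range ran from -0.14 to 0.11. Lox lay at the 91st percentile of these genes, with 1 m6A-RIP row and the widest error of the 6. Spp1 lay at the 75th and Thbs1 at the 52nd percentile. These differences hold the RNA comparison by which the list was chosen and carry no test.

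**Figure D2:**
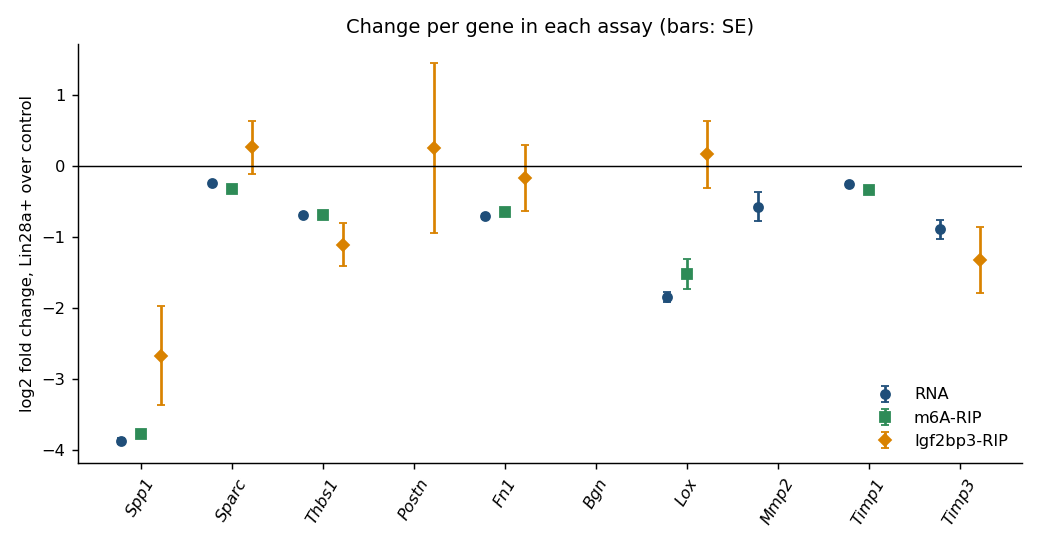
Log2 fold change, Lin28a+ over control, of each member in RNA (blue circles), m6A-RIP (green squares) and Igf2bp3-RIP (orange diamonds), with bars of 1 SE from edgeR; members with no symbol in an assay had no row or were not tested. RNA and m6A-RIP lie close together below 0, while Igf2bp3-RIP has wider bars, from -2.67 for Spp1 to 0.26 for Sparc.

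In Igf2bp3-RIP, 37 peaks were assigned to 7 members, and Mmp2, Bgn and Timp1 had none. The replicate libraries within a group differed strongly, with Spp1 at 251 and 831 CPM in control and at 45.7 and 124 CPM in Lin28a+ MuSCs. Both Lin28a+ libraries still lay below both control libraries, and the log2 difference was -2.67 ± 0.70 (SE, n = 2 per group, edgeR adjusted p = 0.34). Leaving out 1 library moved it to between -3.52 and -1.56, and it passed the threshold without control replicate 1 and without Lin28a+ replicate 2. Thbs1 stood at 1569 and 1678 CPM in control and at 609 and 899 CPM in Lin28a+ MuSCs, a log2 difference of -1.11 ± 0.30 (edgeR adjusted p = 0.36). Timp3 stood at 38.2 and 27.1 CPM in control and at 7.36 and 18.4 CPM in Lin28a+ MuSCs, a log2 difference of -1.33 ± 0.47 (edgeR adjusted p = 0.52) that ranged from -2.11 to -0.81 with 1 library left out. The groups did not overlap for these 3 genes. Igf2bp3-RIP counts also rise with the RNA level, and RNA differed by -3.87 for Spp1, -0.69 for Thbs1 and -0.89 for Timp3 (log2). These values are therefore not read as a change of binding per RNA, which was not tested.

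The other members overlapped between the groups in Igf2bp3-RIP. Fn1 stood at 1776 and 3120 CPM in control and at 1445 and 2906 CPM in Lin28a+ MuSCs, a log2 difference of -0.17 ± 0.46. Sparc stood at 946 and 1617 CPM in control and at 1264 and 1807 CPM in Lin28a+ MuSCs, a log2 difference of 0.26 ± 0.37. Lox was low, at 4.75 and 8.20 CPM in control and at 9.98 and 4.92 CPM in Lin28a+ MuSCs, a log2 difference of 0.16 ± 0.47. The sign of all 3 turned when 1 library was left out (Fn1 to 0.29, Sparc to -0.075 and Lox to -0.40), so no direction is read for them. Same-numbered libraries deviated together (r = 0.69 over 4527 genes), so leaving out 1 library also unbalances the replicate numbers. Within each replicate number Fn1 was lower and Sparc higher in Lin28a+ MuSCs, while Lox went both ways. The number was not taken as a pairing.

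None of the 7 members passed the threshold per gene (0.287% of the 4527 genes tested passed) and none of the 37 peaks passed per peak (0.123% of the 19465 peaks tested passed) in edgeR's fit without a replicate block. At an unadjusted p of 0.05, 3 members and 11 peaks passed, against 8.44% of all genes and 5.22% of all peaks. DESeq2 called 2 members, Spp1 and Thbs1, of 115 genes in all, and 1 member peak of 263 in all. Libraries of the groups did not overlap, with Lin28a+ lower, for 3 of the 7 members (19.7% of all genes) and for 12 of the 37 peaks (16.8% of all peaks), with the distant peak assigned to Postn counted among both.

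**Figure D3:**
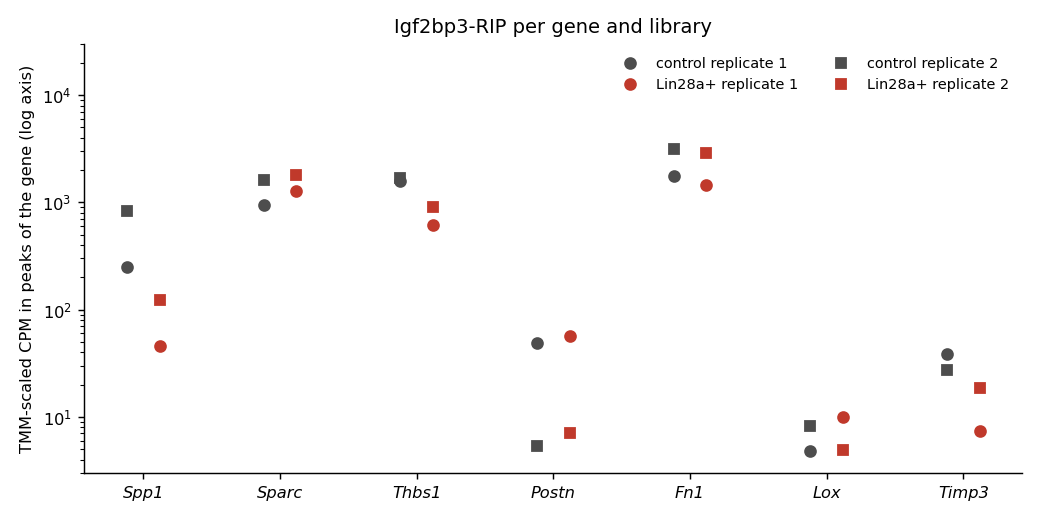
TMM-scaled CPM in the Igf2bp3-RIP peaks assigned to each of 7 members, on a log axis; grey is control and red is Lin28a+, circles are replicate 1 and squares replicate 2. Both Lin28a+ libraries lie below both control libraries for Spp1, Thbs1 and Timp3, and the peak assigned to Postn, which lies outside the gene, splits by replicate number rather than by group.

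The peaks of 1 gene gave similar differences. All 8 Thbs1 peaks had log2 differences between -1.25 and -1.04, with SE from 0.27 to 0.35, and in each the libraries of the groups were apart. The 3 Timp3 peaks ranged from -1.52 to -1.01, also without overlap. All 19 Fn1 peaks lay slightly below 0, from -0.34 to -0.08, and in all 19 the groups overlapped. The 3 Sparc peaks lay between 0.20 and 0.31. Peaks of 1 gene share its RNA and libraries, so they do not count as separate evidence.

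The single Spp1 peak of Igf2bp3-RIP lay at chr5:104440118-104440623 (mm10), which ends 430 bases before the 3′ end of the RefSeq gene on the plus strand. Spp1 spans chr5:104435111-104441053, and whether the peak falls in coding or untranslated sequence is not given in the tables used here. The single peak assigned to Postn lay at chr3:54481529-54482505, 90488 bases beyond the end of the gene (chr3:54359267-54391041). It lay inside the RefSeq pseudogene Gm5641 (chr3:54481415-54482925), so its values are not read as Postn. It stood at 49.2 and 5.30 CPM in control and at 57.3 and 7.06 CPM in Lin28a+ MuSCs, in both groups far higher in replicate 1. Apart from this peak and the Lin28a-RIP peak assigned to Postn, at chr3:54481529-54481827 in the same pseudogene, all Igf2bp3-RIP and Lin28a-RIP peaks of the members overlapped the RefSeq gene they were assigned to.

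Lin28a-RIP was done in Lin28a+ MuSCs alone, so it has no comparison of groups, and a peak's count rises with the abundance of its RNA. Of the members, Fn1 carried 39 peaks, Thbs1 13, and Spp1 and Sparc 1 each, while Lox, Timp1, Timp3, Mmp2 and Bgn had none. The peak assigned to Postn was again at Gm5641, with 3.88 and 9.02 CPM. Over the 3493 genes with a Lin28a-RIP peak, the median was 3 peaks and 67.2 CPM per gene.

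Fn1 summed to 8747 and 8712 CPM in the 2 Lin28a-RIP libraries, the 8th highest of the 3493 genes. Thbs1 summed to 2814 and 2759 CPM, in 53rd place. Per kilobase of peak, Fn1 had 621 CPM, Sparc 492 CPM, Thbs1 321 CPM and Spp1 90.9 CPM, against a median of 47.3 CPM over all genes. Spp1, with 35.9 and 34.3 CPM in its 1 peak, lay at the 37th percentile of the genes by summed CPM, and Sparc, with 99.8 and 97.2 CPM, at the 58th. The 2 libraries differed by little for all of these genes.

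Along Fn1 (chr1:71585473-71653280), a gene of 67808 bases, the 39 peaks were spread over most of the gene, and the density ranged from 335 to 999 CPM per kilobase of peak. The strongest single peak held 6.34% of the gene's signal. Along Thbs1 (chr2:118111876-118127133), a gene of 15258 bases, the density of the 13 peaks ranged from 212 to 414 CPM per kilobase. Its widest peak, of 2159 bases at the far end of the gene (chr2:118124855-118127013), held 22.5% of the signal.

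Lin28a-RIP and Igf2bp3-RIP peaks of these genes were compared by position, with 1 shared base counted as an overlap. All 19 Fn1 and all 8 Thbs1 peaks of Igf2bp3-RIP overlapped a Lin28a-RIP peak, as did the Spp1 peak. None of the 3 Sparc, 2 Lox and 3 Timp3 peaks did. In the other direction, 48.7% of the 39 Fn1 and 46.2% of the 13 Thbs1 peaks of Lin28a-RIP overlapped an Igf2bp3-RIP peak. Over all genes these shares were 60.4% of the Igf2bp3-RIP peaks and 52.4% of the Lin28a-RIP peaks. Where each peak had to cover at least 50% of the other, 16 of 19 Fn1 peaks and 3 of 8 Thbs1 peaks (37.5%) of Igf2bp3-RIP remained, against 47.7% of all Igf2bp3-RIP peaks. Of the Lin28a-RIP peaks, 41.0% for Fn1 and 23.1% for Thbs1 remained under this rule, against 43.0% of all Lin28a-RIP peaks. The Sparc peak of Lin28a-RIP, at chr11:55399317-55399516, lay apart from the 3 Igf2bp3-RIP peaks of the gene, the nearest of which was at chr11:55395209-55395732.

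**Figure D4:**
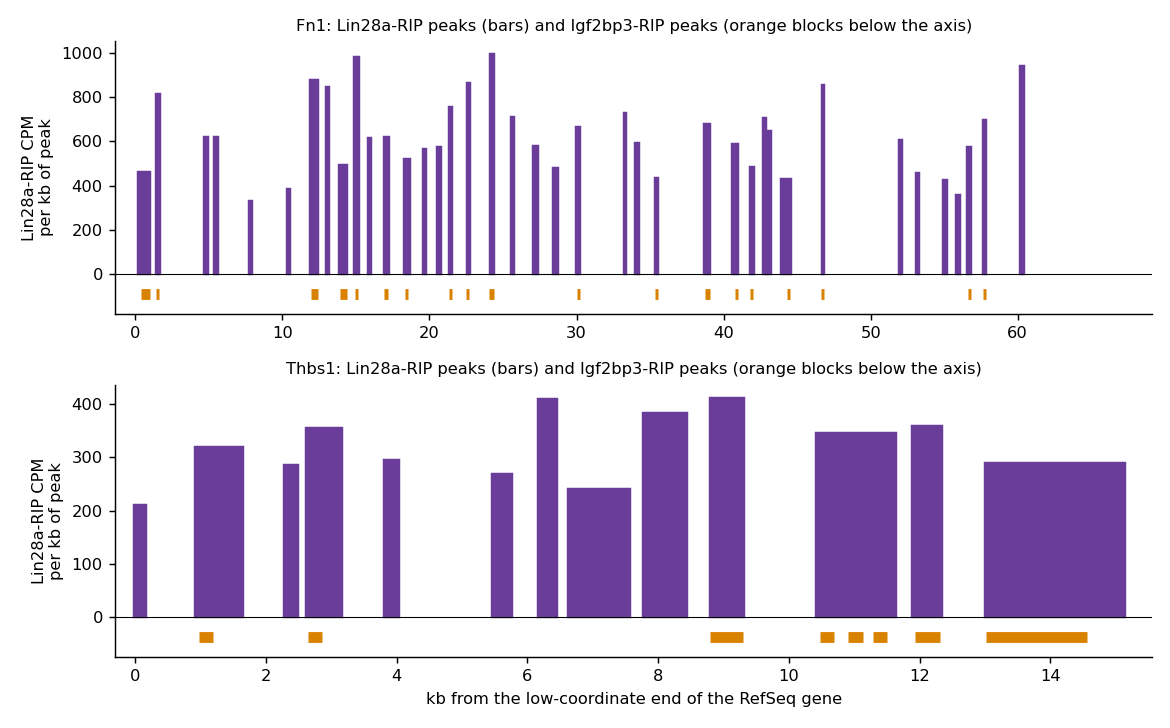
Lin28a-RIP peaks of Fn1 (top) and Thbs1 (bottom) as bars whose height is the mean CPM of 2 libraries per kilobase of peak and whose width is the peak, against the distance in kilobases from the low-coordinate end of the RefSeq gene; orange blocks are Igf2bp3-RIP peaks. All 19 Fn1 and 8 Thbs1 Igf2bp3-RIP peaks sit under a Lin28a-RIP peak, and many Lin28a-RIP peaks have no such partner.

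A wider list of 113 matrix genes was put together by function, with earlier results of these data known, and leaves out the members. In RNA 88 had a row and 70 were tested. Of these, 35 fell, 16 rose and 19 did not pass, against 28.7% of all genes lower and 28.1% higher, and their median log2 difference was -0.48. In m6A-RIP 54 were tested, of which 29 fell and 11 rose, against 33.8% of all genes lower and 32.5% higher, with a median of -0.32. In Igf2bp3-RIP 25 were tested, and edgeR called none, against 0.287% of all genes, with 3 at an unadjusted p of 0.05, against 8.44%.

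Among other matricellular genes, 9 of the 14 tested fell in RNA and 3 rose. Thbs2, a thrombospondin that inhibits angiogenesis, fell from 66.3 and 66.9 CPM to 4.72 and 6.95 CPM, or 11.4-fold (edgeR adjusted p = 1.17e-05). Spock1, a testican proteoglycan, had rounded counts of 27 and 32 in control and of 2 and 3 in Lin28a+ MuSCs, a ratio of summed counts of 10.0 (exact 95% binomial interval 4.05 to 31.9, which covers counting error only). Its relative Spock2 rose from 15.5 and 18.8 CPM to 51.9 and 50.7 CPM, and Fbln1 (fibulin 1) rose from 34.3 and 38.1 CPM to 86.3 and 75.4 CPM. Relatives within 1 family thus differed in direction.

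All 3 proteoglycans tested fell in RNA, among them Ogn (osteoglycin), from 63.7 and 65.5 CPM to 23.6 and 19.2 CPM. Vcan (versican), a large hyaluronan-binding proteoglycan, fell from 101 and 101 CPM to 39.3 and 35.2 CPM in RNA and 2.87-fold in m6A-RIP (edgeR adjusted p = 1.04e-11).

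Genes of collagen processing and crosslinking were split, with 5 of 13 higher and 3 lower in RNA. Loxl2, a lysyl oxidase of the same family as Lox, rose from 0.94 and 1.29 CPM to 14.3 and 17.8 CPM, 14.0-fold (edgeR adjusted p = 6.65e-05), while Lox was 3.59-fold lower. Pcolce, which enhances the cleavage of procollagen, rose from 18.0 and 16.9 CPM to 25.9 and 26.4 CPM in RNA and 1.43-fold in m6A-RIP. Tgm2, a transglutaminase, and Bmp1, the procollagen C-proteinase, fell by 1.54-fold and 1.40-fold in RNA. Both were also lower past the threshold in m6A-RIP.

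Of the 17 proteases tested, 7 fell, 3 rose and 7 did not pass. Mmp19 fell from 27.3 and 27.7 CPM to 7.47 and 8.18 CPM in RNA, but in m6A-RIP it rose from 43.6 and 38.4 CPM to 59.9 and 48.6 CPM (edgeR adjusted p = 0.0032). Mmp11 (stromelysin 3) went the other way, up 1.66-fold in RNA and down 2.38-fold in m6A-RIP (edgeR adjusted p = 2.15e-05). Adam9, a membrane-bound sheddase, fell 1.86-fold in RNA and 1.75-fold in m6A-RIP. Adamts1, which cleaves versican and aggrecan, rose 2.17-fold in RNA and 1.67-fold in m6A-RIP.

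Of the 6 protease inhibitors tested beside Timp1 and Timp3, 4 fell and 1 rose in RNA. Serpine2 fell 2.43-fold in RNA and rose 1.29-fold in m6A-RIP (edgeR adjusted p = 0.049). Cst3 (cystatin C) rose 1.11-fold in RNA and did not pass in m6A-RIP, at 28.2 and 30.3 CPM against 29.2 and 30.1 CPM.

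Elastic fibre genes were split, with 2 of 8 lower and 3 higher in RNA. Ltbp4, a latent TGF-beta binding protein, rose from 4.50 and 4.18 CPM to 36.4 and 37.4 CPM, 8.48-fold (edgeR adjusted p = 6.71e-06). Ltbp2, which binds fibrillin, rose 5.13-fold, from 0.56 and 0.64 CPM to 3.34 and 3.07 CPM. Its rounded counts were low, 3 and 4 in control and 17 and 15 in Lin28a+ MuSCs. Ltbp1 fell 2.00-fold and Fbn1 (fibrillin 1) fell 1.97-fold in RNA. In m6A-RIP Ltbp4 rose 7.74-fold, Ltbp2 rose 6.34-fold, Ltbp1 fell 2.22-fold and Fbn1 did not pass.

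Of the 9 matrix receptors tested, 7 fell and 1 rose in RNA. Itgav, the alpha-V integrin that binds Spp1, Fn1 and other proteins with an RGD sequence, fell from 36.9 and 37.7 CPM to 15.5 and 18.0 CPM, 2.23-fold (edgeR adjusted p = 1.01e-04). Sdc4, a syndecan that binds Fn1 and is also on the list of myogenic markers, fell from 210 and 218 CPM to 97.5 and 103 CPM. Itga5, the alpha chain of the classical fibronectin receptor, rose 1.34-fold in RNA and did not pass in m6A-RIP. In m6A-RIP 6 of 10 receptors fell and none rose.

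**Figure D5:**
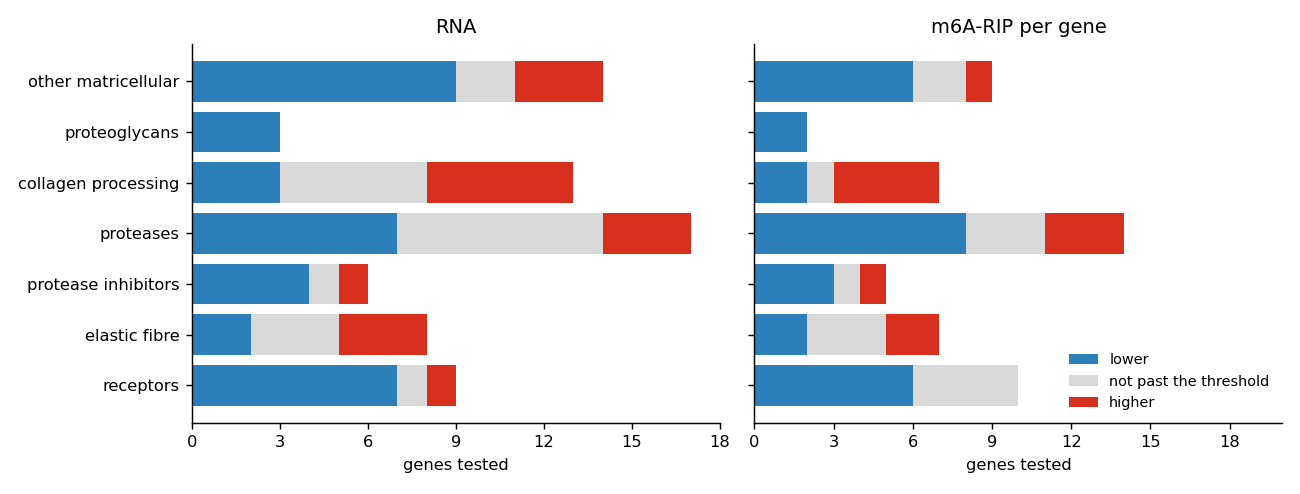
Number of genes tested in each functional class of related matrix genes that were lower (blue), higher (red) or not past an adjusted p of 0.05 (grey) in Lin28a+ against control MuSCs, in RNA (left) and m6A-RIP (right). More genes were lower than higher in the matricellular, proteoglycan, protease, inhibitor and receptor classes, and collagen processing had 5 higher and 3 lower in RNA.

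The genes most like Spp1 in the pair of log2 differences, by Euclidean distance over 8 libraries and 7415 genes, were Dusp2, Tmem223 and Pclo. Dusp2, a phosphatase of MAP kinases, had -3.95 in RNA and -3.75 in m6A-RIP, at a distance of 0.076. Tmem223 had -3.75 and -3.77, and Pclo -4.05 and -3.75. The genes most like Thbs1 were Tmem37, Pias2 and Ano6, at distances of 0.0042, 0.017 and 0.018. Postn was tested in neither assay and has no such neighbours.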

How the data were processed

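Mouse MuSCs were analysed from 4 tables that the authors deposited, 1 for input and 1 for each antibody. Reads were aligned with HISAT2 (version 2.0.4), and MACS2 (version 1.4.3) is named for m6A peaks, while the caller of the other peaks is not given in the sources used here. The submitters' processing notes name both mm10 and GRCh38. Peaks of the members, other than the 1 assigned to Postn in each protein's table, overlapped their mouse genes on GRCm38 (mm10). The input table holds estimated counts per gene, deposited as values that are mostly not whole. How they were made is not given in the sources used here, and they were rounded. All 4 values were whole (within 1e-06) for 890 genes, and among those with 20 to 4000 summed counts the replicates differed by a mean chi-square of 1.89 (control) and 1.74 (Lin28a+) per degree of freedom, where sampling noise alone gives 1. The RIP tables, as the authors deposited them, hold raw counts per peak or row, and the same peaks were counted in all libraries of a table.

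Lin28a+ columns of the input and m6A-RIP tables carry no usable replicate number, so no pairing was made there. Counts were summed per gene where stated, filtered with filterByExpr, scaled by TMM and compared with the quasi-likelihood test of edgeR (version 4.0.16) in R (version 4.3.3), with Benjamini-Hochberg adjustment over all features and a threshold of 0.05. Alternatives were DESeq2 (version 1.42.0), other size factors, other filters, each library left out in turn and, for Igf2bp3-RIP, a replicate block. The fits were tested on simulated data. The simulated counts spread at least as much as counting error, so they do not bear on RNA errors narrower than that. Named genes were the 10 members, in each class of related genes up to 2 with the largest rise and 2 with the largest fall in RNA whose libraries did not overlap, and the 3 genes nearest to Spp1, Thbs1 and Postn. The values of 1 gene that this rule names are not reported here. The members and lists were chosen with earlier results of these data known.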

Additional observations from a re-analysis of the deposited data

How the results depend on the processing

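In RNA and m6A-RIP, every member tested kept its direction under DESeq2, other size factors, other filters and each library left out. In RNA, 6 members passed with DESeq2 in place of 7, since Timp3 was lost (adjusted p = 0.32), and DESeq2 called 3062 genes in all against 6432 with edgeR. The edgeR SE in RNA was narrower than that of DESeq2 for every member tested. It was 0.042 against 0.17 for Spp1, 0.13 against 0.60 for Timp3 and 0.20 against 0.63 for Mmp2. The edgeR p-values in RNA rest on these narrower errors. Scaling by total counts moved the median log2 difference of all genes from 0.01 to -0.09 in m6A-RIP, and the median of m6A-RIP minus RNA from -0.01 to -0.14. The member values of that difference moved likewise, to -0.22 for Timp1 and Sparc, -0.07 for Fn1, -0.02 for Spp1, -0.14 for Thbs1 and 0.20 for Lox, which alone stayed above 0. Without control replicate 2 the RNA difference of Mmp2 moved from -0.57 to -0.32.

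Igf2bp3-RIP depended on the settings. DESeq2 called 2 members and 1 peak, with 115 genes and 263 peaks in all against 13 and 24. Scaling by total counts gave 7 genes and 36 peaks in all, and a minimum of 10 counts in every library gave 0 peaks. With a replicate block, 3 members passed (Spp1, Thbs1 and Timp3) and 12 of the 37 member peaks, with 374 genes and 1988 peaks in all. Same-numbered libraries deviated together (r = 0.69 over 4527 genes), but the labels do not say what the number marks, and with 2 pairs it was not taken as a pairing. With 1 library left out, 0 to 1 members and 0 to 2 peaks passed, with 39 to 73 genes and 108 to 193 peaks in all. Spp1 passed per gene without control replicate 1 (adjusted p = 1.92e-04) and without Lin28a+ replicate 2 (adjusted p = 0.012), with log2 differences from -3.52 to -1.56 over the 4 libraries left out, and Timp3 ranged from -2.11 to -0.81. The direction was not stable for Fn1 (-0.72 to 0.29), Lox (-0.40 to 0.64), Sparc (-0.075 to 0.70) and the peak assigned to Postn (-1.92 to 2.59). The cause was not tested. Leaving out 1 library also unbalances the replicate numbers. With the replicate block the log2 difference was -0.20 ± 0.20 for Fn1 and 0.29 ± 0.18 for Sparc, and neither passed. All 5 members with an assigned Lin28a-RIP peak, Postn by its distant peak, kept it at 100 or more counts in every library.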
